A study of Sus scrofa with 36 samples.

Results

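Liver expression was compared between Creole and Large White pigs kept at thermoneutrality. Creole (CR) pigs are a local population of Guadeloupe in the Caribbean, and Large White (LW) pigs are a commercial breed of European origin. The members were chosen by their labels alone, as the 6 CR and the 6 LW pigs labelled 24 °C, which are 12 of the 36 animals of the series. All were castrated males, and the 2 groups are called CR TN and LW TN. The other 24 animals were 6 CR and 6 LW pigs killed after exposure to heat (HS, labelled 30 °C, whereas the growth protocol gives 32 °C) and 12 pigs of the cross called F1, of which 6 were TN and 6 HS. The age at slaughter is not in the labels. Per the study's methods, pigs of a breed shared pens and litters and were not fasted, so breed cannot be told apart from pen and litter, and the p-values treat the animals as independent.

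The liver makes most plasma proteins, clears drugs and nitrogen, and handles lipids and glucose, and these tasks fall to the hepatocytes. Between them lie the vessels' lining cells, resident macrophages called Kupffer cells, and lymphocytes, which take up debris and present antigen. In whole tissue, fewer cells of a type and less RNA per cell cannot be told apart.

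RNA was hybridised to 1-colour arrays of 60-base probes, and values are the median spot signal on the log2 scale after quantile normalization. Differences are given as CR minus LW on the log2 scale, so 1 is a doubling of signal in CR. Between 39644 and 43123 spots were well above background on the 12 arrays. Hepatocyte markers stood among the brightest, with mean log2 signals in CR of 18.78 for ALB and 18.55 for APOA1, and none of the 11 measured differed by breed. Of 8 measured skeletal muscle markers, none differed either.

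LW TN replicates 1 and 6 stood apart from their group. On the first principal component, which carried 18.6% of the variance over all 36 arrays, they scored -4.83 and -3.04. The other 4 LW TN pigs lay between -44.2 and -35.0, and the 6 LW HS pigs between -34.3 and -24.8. CR TN pigs lay between 2.35 and 30.2. As a check, 22 probes were taken whose LW HS and CR HS signals lay more than 1 log2 unit apart. LW TN replicates 1 and 6 were nearer to the CR HS mean than to the LW HS mean at 10 of these 22 probes each, and the other 4 LW TN pigs at 0 to 2. Of the 12 F1 pigs, HS replicates 1 and 2 had scores of -17.0 and -21.3, towards LW, and were nearer to the LW HS mean at 14 of the 22 probes each. A wrong label cannot be told apart here from variation within a breed. All animals were kept under their labels, and counts are given with and without LW TN replicates 1 and 6.

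**Figure D1:**
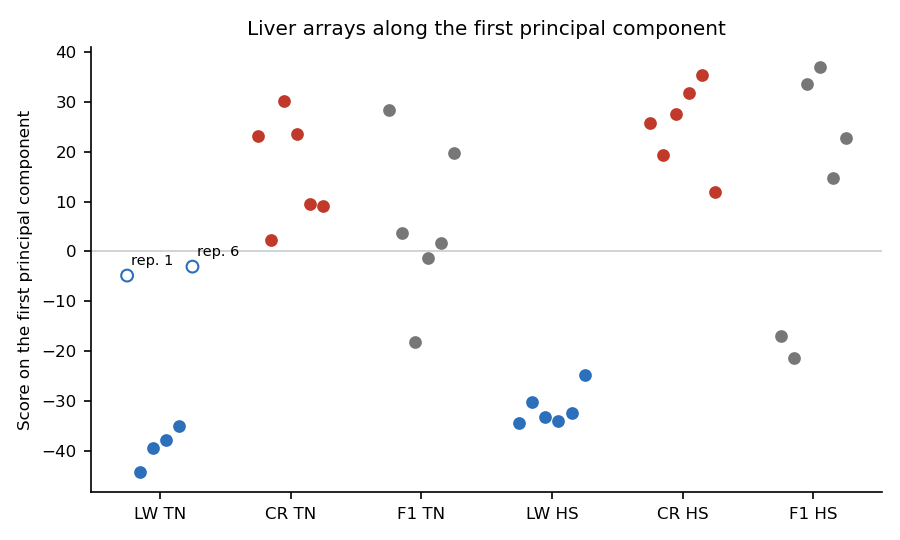
Score of each of the 36 liver arrays on the first principal component (y axis, no unit) by breed and temperature group (x axis), with 1 point per animal. LW points are blue, CR red and F1 grey, and open circles mark LW TN replicates 1 and 6, which lie at -4.83 and -3.04, above the other LW TN animals.

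Across the array, 1982 of 44796 probes (4.42%) differed between the breeds at TN in limma with Benjamini-Hochberg adjustment, 909 higher in CR (2.03%) and 1073 lower (2.4%). At an unadjusted p under 0.05 there were 9361. Most differences were modest, with a median size of 0.50 on the log2 scale, and 176 probes differed by at least 1 log2 unit and 20 by at least 2. The 6 CR and 6 LW values did not overlap at 670 of the called probes, against 965 probes (2.15%) over the whole array. Taking the brightest kept probe of each of 11423 gene symbols, 551 genes were called (4.82%), 212 higher in CR (1.86%) and 339 lower (2.97%). Without LW TN replicates 1 and 6, 4034 probes were called (9.01%, with 4.31% higher and 4.69% lower), of which 1772 were among the 1982, and 992 genes (8.68%, with 3.33% higher and 5.36% lower). Leaving out single animals moved the count most for CR TN replicate 3 (1070 probes) and for LW TN replicates 2 (1086), 3 (1186), 4 (1150) and 5 (1180). With slide as a fixed block the count was 1261, of which 1141 were among the 1982, and without slide 2, 3 or 4 it was 744, 254 and 984.

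The difference was also read in other animals of the same breeds, the 6 CR HS and 6 LW HS pigs, in which 7457 probes (16.6%, with 8.02% higher in CR and 8.63% lower) and 1839 genes (16.1%, with 6.54% higher and 9.56% lower) were called. Of the 1982 probes called at TN, 1366 (68.9%) were called in the same direction in HS animals and 0 in the opposite direction, and 1954 had the same sign. No probe was called for a change of the breed difference between TN and HS in limma, where 2013 (4.49%) had an unadjusted p under 0.05. The larger count in HS is therefore not shown to be a larger breed difference. When arrays were scaled by their median instead, the share of HS calls that were higher in CR moved from 48.2% to 31.8%.

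Probe sequences, as given in the scanner files, are shown for 4 of the genes on which the largest and the immune differences rest. For OAZ3 both probes are printed, for HLA-E and XAF1 the brightest, and for IFIT2 the other 2 of its 3 called probes, not the brightest one whose value is given. Each probe can be read through without a stop codon in at least 1 forward frame, and all bases are in lower case because no part is singled out.
OAZ3, brighter probe: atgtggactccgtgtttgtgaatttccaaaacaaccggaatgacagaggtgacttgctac
OAZ3, second probe: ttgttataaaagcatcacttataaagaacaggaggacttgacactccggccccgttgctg
HLA-E: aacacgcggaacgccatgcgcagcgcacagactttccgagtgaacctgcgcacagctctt
XAF1: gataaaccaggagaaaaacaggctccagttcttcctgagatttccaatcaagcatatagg
IFIT2, dimmest probe: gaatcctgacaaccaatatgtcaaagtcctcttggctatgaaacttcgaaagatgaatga
IFIT2, middle probe: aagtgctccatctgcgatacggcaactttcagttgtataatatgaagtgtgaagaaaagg

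Among genes higher in CR, the largest differences were those of NRN1 and C1GALT1. NRN1 (neuritin 1, a small membrane-anchored protein best known from neurons, chr7:3682568-3691328) had log2 signals from 9.84 to 11.59 in CR with a median of 10.57, and from 5.81 to 8.34 in LW with a median of 6.8. The groups did not overlap, and both of its probes were called. The difference was 3.62 ± 0.745 (SE, n = 6 and 6, limma adjusted p = 0.00458), 12.3-fold, and it was 2.96 in HS animals (adjusted p = 0.00694). In the authors' deposited log2 table the difference was 2.41 with an adjusted p of 0.0803.

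C1GALT1, the enzyme that adds galactose to O-linked sugars (chr9:77509342-77549545), was well above background on all 6 CR arrays and on 0 of 6 LW arrays. Its log2 signal ran from 8.07 to 9.10 in CR (median 8.55) and from 4.89 to 5.00 in LW (median 4.95). Every CR animal was far above every LW animal, and the signal was at least 10.9-fold higher in CR (limma adjusted p = 0.00066). This rested on 1 probe, and with normexp background correction the fitted difference was 2.72.

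DDO, D-aspartate oxidase (chr1:76391112-76417147), was supported by all 4 of its probes. Its log2 signal was 9.72 to 10.92 in CR (median 10.44) and 8.26 to 9.32 in LW (median 8.74), with no overlap. The difference was 1.58 ± 0.278 (SE, limma adjusted p = 0.00116), 2.98-fold, and 1.18 in HS animals. DMD, the gene of dystrophin, had the smallest adjusted p of the genes that the naming rule picked (7.79e-05). It lay between 8.24 and 8.82 in CR (median 8.44) and between 7.31 and 7.68 in LW (median 7.53), a difference of 0.99 with 3 of 4 probes called.

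The other genes chosen for the largest differences upwards were USF1 (1.13, a transcription factor of lipid and glucose genes), PIGL (1.1, an enzyme of GPI anchor synthesis), ALG14 (1.04, N-glycan synthesis), SAL1 (1.02, salivary lipocalin), CPXM2 (1.01, a carboxypeptidase-like protein), ADSSL1 (0.93, a purine enzyme of muscle) and CKMT2 (0.88, mitochondrial creatine kinase). Of the 4 USF1 probes, 2 were called. The call of ALG14 was lost without any 1 of 7 animals and that of SAL1 without any 1 of 8, and both were lost in the deposited log2 table and with slide as a fixed block. Groups overlapped for ALG14, SAL1 and CKMT2, and the differences of ADSSL1 and CKMT2 in HS animals were 0.21 each and did not pass the threshold. Among genes with fewer supporting probes, FAM19A3 differed by 1.78, the noncoding RNA MEG3 by 1.74 and PUSL1 (a pseudouridine synthase-like gene) by 1.62. FAM19A3 was well above background on 4 of 6 LW arrays, and its difference was 3.03 with the processed signal. Its call was lost without CR TN replicate 3 or 6 and in the deposited log2 table (adjusted p = 0.0518). Without LW TN replicates 1 and 6, the adjusted p was 0.066 for ADSSL1 and 0.056 for ALG14.

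Among genes lower in CR, OAZ3 (an inhibitor of polyamine synthesis known from testis, chr4:97439993-97448493) was the largest with 2 called probes. Its log2 signal was 6.36 to 6.86 in CR (median 6.65) and 8.45 to 9.33 in LW (median 8.89). The groups lay well apart, and the difference was -2.24 ± 0.354 (SE, limma adjusted p = 0.000437), 4.73-fold. The second probe printed above differed by -1.22. In HS animals the brighter probe differed by -1.42 (adjusted p = 0.00678).

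The probes of TRIM46 (a ubiquitin ligase family gene best known from axons, chr4:94632073-94642756) disagreed. The brighter one ran from 7.91 to 9.61 in CR (median 8.66) and from 9.25 to 12.64 in LW (median 10.67), a difference of -2.09 (limma adjusted p = 0.00231). The other probe differed by 0.01 (adjusted p = 0.976), so the call rests on 1 of the 2 probes. Signal at a probe also depends on how well it matches the animal's own sequence, and the part of that in this result was not tested. THBS3 (a thrombospondin of the matrix, chr4:94612702-94623905), in the same region of chromosome 4, differed by -1.26 (adjusted p = 0.00066) with 2 of 3 probes called and no overlap between groups.

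Other genes named for the largest differences downwards were CLDN12 (-1.79, a claudin of tight junctions), TMOD3 (-1.22, an actin capping protein), NUDT9 (-1.21, an ADP-ribose hydrolase), NCL (-1.17, nucleolin) and HRH1 (-1.96, a histamine receptor). HRH1 was well above background on 1 of 6 CR arrays and on all 6 LW arrays, and its difference was -4.28 with the processed signal. The second NCL probe had the opposite sign. The calls of TMOD3, NUDT9 and NCL were each lost when any 1 of 8 or 9 animals was left out. C1D, a nuclear exosome cofactor, had the smallest adjusted p of any probe with a symbol (5.31e-08). It was 7.49 to 7.74 in CR and 8.59 to 8.87 in LW, a difference of -1.0, and it was named after its values were seen.

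**Figure D2:**
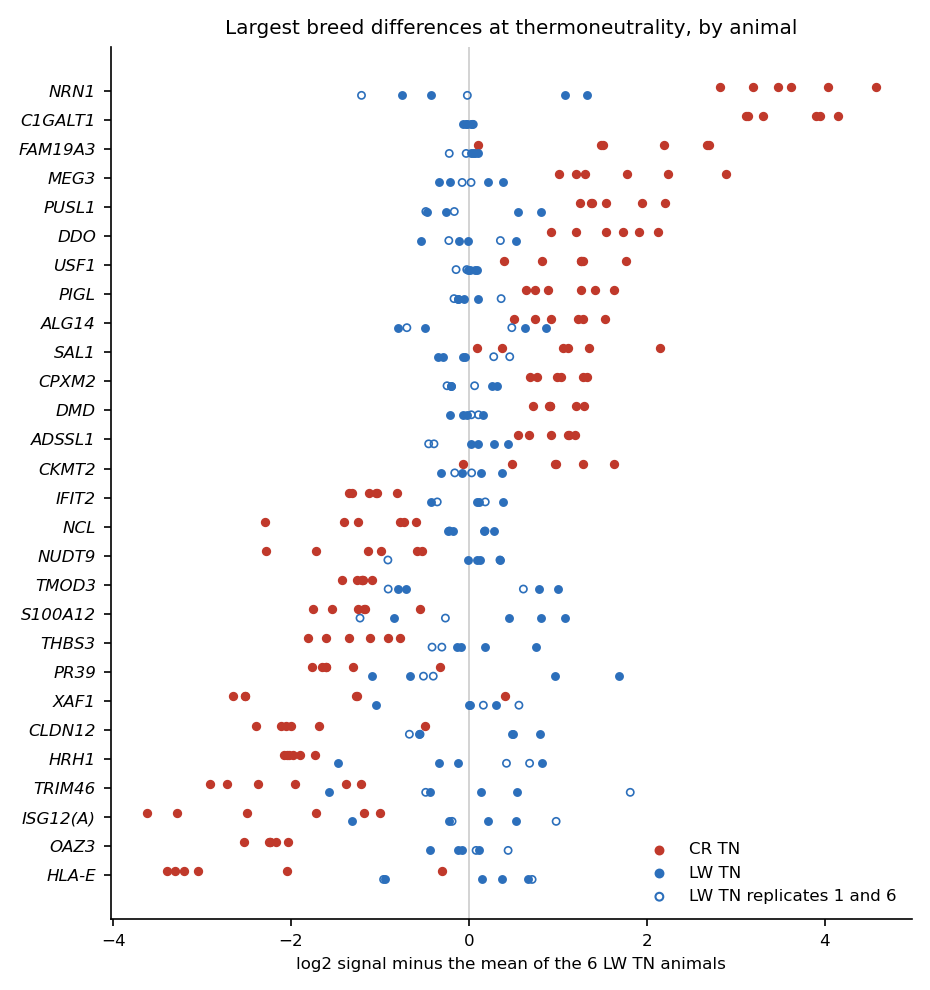
Log2 signal of the brightest kept probe of each gene named for its size of difference, minus the mean of the 6 LW TN animals (x axis, log2 units), 1 line per gene and 1 point per animal. Red points are CR TN, blue points LW TN, and open circles LW TN replicates 1 and 6. CR points lie apart from LW points for NRN1, C1GALT1, DDO, DMD, OAZ3, THBS3 and IFIT2, and the groups overlap for HLA-E, ISG12(A), TRIM46 and XAF1.

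The smallest p-values on the array belonged to probes without a gene symbol, chosen here after their values were seen. The first, described in the file as a protease, ran from 8.99 to 10.52 in CR and from 5.61 to 5.89 in LW, a difference of 3.81 ± 0.281 (SE, limma adjusted p = 1.32e-10). A second probe, described as a protease from another transcript, differed by 3.36. In HS animals the differences were 3.30 and 2.72. At the first probe LW TN replicates 1 and 6 had 5.89 and 5.70, inside the range of their group, whereas the 12 F1 pigs lay between 7.68 and 9.96. A probe chosen for so small a p has LW values close together, so these values do not test the labels. Of the 100 probes with the smallest p, 50 had no symbol, against 46.6% of all kept probes.

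Where markers of macrophages, T and NK cells, neutrophils and endothelial cells differed, they were lower in CR, although most did not pass the threshold. Of 11 measured Kupffer cell and macrophage markers, 5 were lower and 0 higher, and the median difference was -0.52, against -0.0046 over all genes. The share called was 45.5%, against 4.82% of all genes. CD163, the scavenger receptor for haemoglobin, had log2 signals of 11.94 to 12.44 in CR (median 12.19) and 12.63 to 13.58 in LW (median 13.23). The groups did not overlap, and all 5 CD163 probes were called. The difference was -1.0 ± 0.163 (SE, limma adjusted p = 0.000566), 2.0-fold, and -1.29 in HS animals.

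The 3 chains of complement C1q, made in the liver by macrophages, were all lower. C1QC reached at most 11.83 in CR (median 11.49) and lay between 11.98 and 12.80 in LW (median 12.49), a difference of -0.95 (limma adjusted p = 0.00283). C1QB differed by -0.88 and C1QA by -0.77. VSIG4, the complement receptor of Kupffer cells, differed by -0.74, with 5 of 6 probes called. Other macrophage genes did not pass: MRC1 differed by -0.52 (adjusted p = 0.0772), CSF1R by -0.38, CD68 by -0.21, AIF1 by -0.21, CD14 by -0.04 and CD5L by 0.08. In HS animals 8 of the 11 were lower, where 9.56% of all genes were lower. The calls of C1QB and VSIG4 at TN were lost in the authors' deposited log2 table, and those of CD163, C1QC and C1QA were not.

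Each animal's mean over the 11 macrophage markers was 11.61 to 11.97 in CR and 12.09 to 12.58 in LW, so the groups did not overlap on this mean. LW TN replicates 1 and 6 were the 2 lowest LW animals. Without them 7 of the 11 were lower, against 5.36% of all genes, and the median was -0.69. Within slides, the list's median difference was -0.74, -0.83, -0.76 and -0.26 on the 4 slides holding both groups. Each of these 4 values rests on a single LW animal and on 1 or 2 CR animals, and the last on LW TN replicate 6.

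T cell and NK cell markers gave 5 of 14 lower and 0 higher (35.7%, against 4.82% of all genes), with a median of -0.49. KLRK1, an activating receptor of NK and T cells, lay between 7.32 and 8.41 in CR (median 7.7) and between 8.11 and 9.34 in LW (median 8.68), with a difference of -0.95 (limma adjusted p = 0.00746) and 3 of 3 probes called. The T cell receptor chains CD3D (-0.75) and CD3E (-0.69), the granule protein NKG7 (-0.67) and the adhesion molecule CD2 (-0.44) were lower as well. The kinase LCK differed by 0.15, CD5 by 0.24, CCL5 by 0.04 and GZMB by 0.06, none past the threshold. The calls of CD3E and CD2 were each lost when any 1 of 6 or 9 animals was left out, and both were lost in the deposited log2 table. With only the 12 arrays in the fit, the calls of KLRK1, NKG7, CD3E and CD2 were lost. That of CD2 was also lost with slide as a fixed block and with no filter on dim probes. List medians within slides were -0.90, -1.07, -0.06 and 0.09, each with a single LW animal. In HS animals 6 of the 14 were lower and 1 higher, where 9.56% of all genes were lower and 6.54% higher. Without LW TN replicates 1 and 6, 9 were lower and 1 higher at TN, where 5.36% of all genes were lower and 3.33% higher. Each TN animal's mean over the 14 markers was 7.61 to 8.23 in CR and 7.9 to 8.6 in LW, so the groups overlapped.

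Neutrophil genes gave 3 of 7 lower and 0 higher (42.9%, against 4.82% of all genes), with a median of -0.64. In HS animals 3 of the 7 were lower, where 9.56% of all genes were lower. Each animal's mean over them was 7.41 to 8.15 in CR TN and 7.81 to 8.96 in LW TN, so the groups overlapped. S100A12, a calcium-binding protein of neutrophil granules, lay between 6.02 and 7.23 in CR (median 6.56) and between 6.55 and 8.85 in LW (median 7.86), and the groups overlapped. It differed by -1.24 (limma adjusted p = 0.0139). The chemokine receptor CXCR2 differed by -0.82 with no overlap, and S100A9 by -0.64. The calls of S100A12 and S100A9 were lost in the deposited log2 table and with only the 12 arrays in the fit. That of S100A9 was also lost with the processed signal, normexp background correction, no filter on dim probes and slide as a fixed block. PR39, a porcine antimicrobial peptide stored in neutrophils, differed by -1.38 (adjusted p = 0.0222), a call lost without any 1 of 4 animals. Markers of B and plasma cells gave 0 of 7 past the threshold and a median of -0.06.

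Endothelial markers gave 4 of 11 lower and 0 higher (36.4%, against 4.82% of all genes), with a median of -0.43. KDR, the VEGF receptor, had log2 signals of 8.25 to 9.62 in CR (median 9.33) and 9.83 to 10.61 in LW (median 10.28), a difference of -1.13 ± 0.188 (SE, limma adjusted p = 0.00066), and 1 of its 3 probes was called. The mean of the 3 probes gave -0.32. PECAM1 (-0.46) joins endothelial cells, CLEC4G (-0.43) is a lectin of liver sinusoids, and ERG (-0.40) is an endothelial transcription factor. VWF differed by 0.13 and did not pass. In HS animals 9 of the 11 were lower, where 9.56% of all genes were lower. Each TN animal's mean over the 11 markers was 9.08 to 9.45 in CR and 9.28 to 9.93 in LW, so the groups overlapped. The calls of PECAM1 and CLEC4G were lost in the deposited log2 table and with slide as a fixed block. With only the 12 arrays in the fit, those of PECAM1, CLEC4G and ERG were lost. The mean of the PECAM1 probes gave -0.19 (limma adjusted p = 0.285).

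Hepatocyte markers did not move with these lists. Their median difference was -0.01, none of 11 was called, and each animal's mean over them was 16.22 to 16.36 in CR and 16.19 to 16.30 in LW. Stellate cell and fibroblast markers gave 1 of 15 lower (COLEC11, -0.51) with a median of -0.16. Bile duct markers gave 1 of 9 higher (KRT7, a keratin, 0.85) with a median of -0.13. These calls were 6.67% and 11.1% of their lists, against 4.82% of all genes. Erythroid (7 measured) and adipocyte (7 measured) markers gave none, with medians of 0.12 and -0.13.

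**Figure D3:**
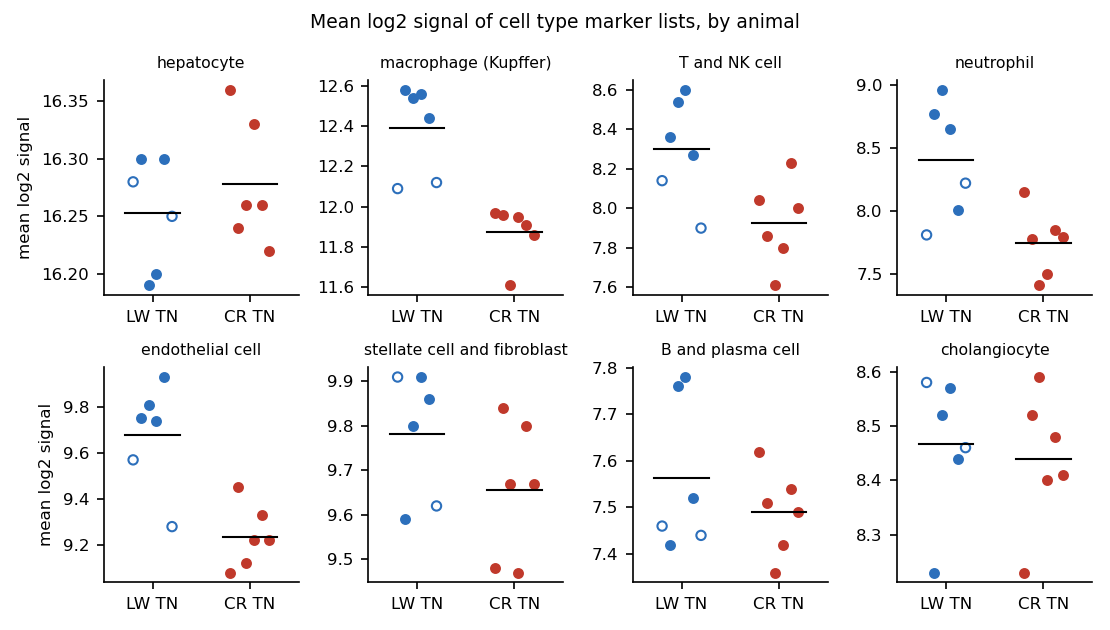
Mean log2 signal over each cell type marker list (y axis, with its own range in each panel) for the 6 LW TN (blue) and 6 CR TN (red) animals, 1 point per animal, with group means as black lines and LW TN replicates 1 and 6 as open circles. The macrophage panel shows CR animals at 11.61 to 11.97 below LW animals at 12.09 to 12.58, and the hepatocyte panel shows overlapping groups at 16.19 to 16.36.

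Genes of antigen presentation and of the interferon response were lower in CR where they differed. MHC class I genes show peptides from inside the cell to T cells, and 4 of 25 genes of this pathway were lower and 0 higher (median -0.17). HLA-E, named so in the file and measured by the 1 probe printed above, ran from 7.01 to 10.1 in CR (median 7.27) and from 9.44 to 11.11 in LW (median 10.66). Most CR animals were below every LW animal, but the highest CR animal was not. The difference was -2.55 ± 0.579 (SE, limma adjusted p = 0.00944), 5.85-fold. Among the others were SLA-1 (-0.58) and B2M (-0.44), the light chain shared by class I molecules. Class I genes are near-identical copies, so a probe may read several of them.

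Class II genes present peptides taken up from outside. Of 15 measured, 2 were lower and 0 higher (13.3% called, against 4.82% of all genes, median -0.26). CTSS, the protease that frees the class II groove, lay between 12.30 and 12.75 in CR (median 12.60) and between 12.73 and 13.68 in LW (median 13.43). It differed by -0.71 (limma adjusted p = 0.0106), with 11 of 12 probes called. SLA-DMB, part of the peptide loading chaperone, differed by -0.47. Macrophage markers were lower in the same CR animals, with each animal's means given above, and their part in the class II values was not tested. In the deposited log2 table the calls of CTSS, SLA-DMB, SLA-1 and B2M were lost.

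Interferon-stimulated genes are switched on in most cells by type I interferon. Of 41 measured, 4 were lower and 0 higher (9.76%, against 4.82% of all genes), and the median was -0.22. ISG12(A), a small mitochondrial protein, was among the brightest, at 13.83 to 16.45 in CR (median 15.34) and 16.14 to 18.43 in LW (median 17.46). It differed by -2.21 ± 0.403 (SE, limma adjusted p = 0.00141), 4.64-fold, and the groups overlapped slightly. XAF1, a promoter of cell death, differed by -1.63 (adjusted p = 0.0068), although its second probe, at -0.66, did not pass.

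IFIT2, which binds foreign RNA, had no overlap between groups, at 8.67 to 9.21 in CR (median 8.93) and 9.59 to 10.40 in LW (median 10.12). All 3 probes were lower, and the brightest differed by -1.11 (limma adjusted p = 0.00217). Its neighbour IFIT3 differed by -0.83, a call lost without any 1 of 8 animals. Many other members of the list showed no difference past the threshold, among them MX1 (0.19), OAS2 (0.16), RSAD2 (-0.15), ISG15 (-0.67) and CXCL10 (0.66). The list's median within slides was 0.0046, -0.66, 0.34 and -0.66, again with a single LW animal on each slide.

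Secreted liver proteins differed little. Among complement and coagulation genes, 33 of 36 had a lower signal in CR and 4 passed the threshold (median -0.11). Among these were PROS1 (-0.37, protein S, an anticoagulant cofactor), C6 (-0.33, of the membrane attack complex) and F2 (-0.23, prothrombin). PROS1 ran from 13.61 to 14.08 in CR and from 14.10 to 14.41 in LW, without overlap. In the acute phase list 1 of 25 was lower, FGG (-0.36, fibrinogen gamma chain), with 3 of 3 probes called. The shares called were 11.1% and 4.0% in these lists, against 4.82% of all genes. The calls of PROS1 and FGG were lost in the deposited log2 table. With slide as a fixed block those of PROS1, FGG and C6 were lost, and with only the 12 arrays those of PROS1, C6 and F2.

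On the brightest probe of each gene, enzymes that handle drugs and oxidised lipids were mostly higher in CR where they differed. In the cytochrome P450 and drug metabolism list 4 of 28 were higher and 1 lower, with a median of 0.20. Of this list 17.9% were called, against 4.82% of all genes. EPHX2, soluble epoxide hydrolase, which converts fatty acid epoxides to diols, lay between 14.87 and 15.29 in CR (median 15.16) and between 13.17 and 14.38 in LW (median 13.70). The groups did not overlap, and the difference was 1.43 ± 0.213 (SE, limma adjusted p = 0.000222), 2.69-fold, on 1 of its 3 probes, and the mean of its probes gave 0.39, which did not pass. In HS animals it was 0.66 (adjusted p = 0.0301).

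CYP3A46, of the family that clears many drugs and steroids, differed by 0.72 (limma adjusted p = 0.00308) on the brightest of 5 probes. This call turns with the choice of probe, since the mean of its probes gave -0.09 (adjusted p = 0.806), and family members share sequence. FMO5 (a flavin monooxygenase) differed by 0.57, a call lost with the processed signal and with slide as a fixed block. AOX1 (aldehyde oxidase) differed by 0.52, a call lost in the deposited log2 table. The mean of the AOX1 probes gave 0.26 (limma adjusted p = 0.157). CYP2B22 (1.13) and CYP1A1 (0.96) had larger values but did not pass, with adjusted p of 0.172 and 0.166.

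Conjugating enzymes gave 2 of 19 higher and 0 lower (10.5% called, against 4.82% of all genes, median 0.15). MGST2, a microsomal glutathione transferase, ran from 13.76 to 14.42 in CR (median 14.34) and from 12.16 to 13.75 in LW (median 13.28), a difference of 1.20 (limma adjusted p = 0.00667). GSTA1 differed by 0.40, and its adjusted p without LW TN replicates 1 and 6 was 0.095. Antioxidant enzymes gave 3 of 30 higher and 0 lower (median 0.12). These were GPX3 (0.87, the secreted glutathione peroxidase), GSR (0.76, which regenerates glutathione) and PRDX1 (0.61, a peroxiredoxin). GSR had no overlap between groups, at 9.17 to 9.64 in CR and 8.05 to 8.86 in LW. The call of GPX3 was lost when any 1 of 9 animals was left out, and those of GPX3 and PRDX1 in the deposited log2 table. In HS animals the antioxidant list gave 2 higher and 3 lower, where 16.1% of all genes were called.

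Amino acid breakdown and the urea cycle gave 2 of 27 higher and 0 lower, with 22 of 27 positive in sign and a median of 0.15. The share called was 7.41%, against 4.82% of all genes. BHMT, which remakes methionine from homocysteine, lay between 16.38 and 16.62 in CR (median 16.53) and between 15.71 and 16.26 in LW (median 15.93), with no overlap. It differed by 0.55 (limma adjusted p = 0.00911) in TN and by 0.55 in HS animals. SLC25A15, the ornithine carrier of the urea cycle, differed by 0.72, a call lost without any 1 of 6 animals.

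Genes of energy and lipid metabolism were scattered. The shares called were 6.9% for fatty acid oxidation and 7.14% for glucose and glycogen metabolism, near the 4.82% of all genes. Fatty acid oxidation gave 2 of 29 higher and 0 lower (median 0.09), ECI2 (0.83) and EHHADH (0.54), enzymes of the peroxisomal and unsaturated fatty acid routes. Glucose and glycogen metabolism gave 2 of 28 higher (median 0.04), PCK2 (0.41, the mitochondrial form of the enzyme that starts gluconeogenesis) and PYGL (0.36, liver glycogen phosphorylase). ECI2 and PYGL had adjusted p of 0.0853 and 0.0827 without LW TN replicates 1 and 6.

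Fatty acid and triglyceride synthesis gave 1 of 25 higher and 2 lower (median 0.09). MLXIPL, the carbohydrate-sensing transcription factor ChREBP, lay between 10.88 and 11.43 in CR (median 10.98) and between 10.13 and 10.51 in LW (median 10.34), with no overlap and a difference of 0.75 (limma adjusted p = 0.0152). PLIN2, the coat of lipid droplets, differed by -0.76 and ELOVL1, a fatty acid elongase, by -0.53. The call of PLIN2 was lost in the deposited log2 table, with slide as a fixed block and with only the 12 arrays in the fit. The mean of the PLIN2 probes gave -0.38 (limma adjusted p = 0.0621). SREBF1, the insulin-responsive regulator of the pathway, differed by 0.89 and did not pass (adjusted p = 0.0741).

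Lipoprotein genes gave 3 of 24 lower and 0 higher (12.5% called, against 4.82% of all genes, median -0.08). PLTP, which moves phospholipid between lipoproteins, lay between 8.31 and 8.77 in CR (median 8.41) and between 9.05 and 9.72 in LW (median 9.28). All 4 probes were called, the groups did not overlap, and the difference was -0.83 ± 0.137 (SE, limma adjusted p = 0.00066). It was -1.03 in HS animals. LIPC (hepatic lipase) differed by -0.48, a call lost with the processed signal, in the deposited log2 table and with only the 12 arrays in the fit. In cholesterol synthesis and uptake 1 of 23 was lower (4.35%), HSD17B7 (-0.64), a call that was lost without any 1 of the 12 animals.

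HSD11B1, which regenerates active cortisol in the liver, was the member called among 17 thyroid and glucocorticoid genes (5.88%, against 4.82% of all genes). It lay between 16.20 and 16.53 in CR (median 16.37) and between 16.55 and 16.91 in LW (median 16.73), with 5 of 7 probes called. The groups lay side by side without overlap, and the difference was -0.38 ± 0.0713 (SE, limma adjusted p = 0.00219), and -0.40 in HS animals.

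In 6 lists no gene was called in limma with adjustment over all probes. These were heat shock proteins and co-chaperones (29 genes, median -0.01, range -0.42 for HSPA5 to 0.41 for HSPB1), growth hormone, IGF and insulin signalling (24 genes, median 0.0018), bile acid synthesis and transport (19 genes, median 0.03), iron handling (19 genes, median 0.06), nuclear genes of the respiratory chain (32 genes, median 0.05) and the cell cycle (28 genes, median 0.24). In HS animals the cell cycle list had a median of -0.22 with 5 genes lower in CR, where 9.56% of all genes were lower. A p that misses the threshold does not show that these genes were equal in both breeds.

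**Figure D4:**
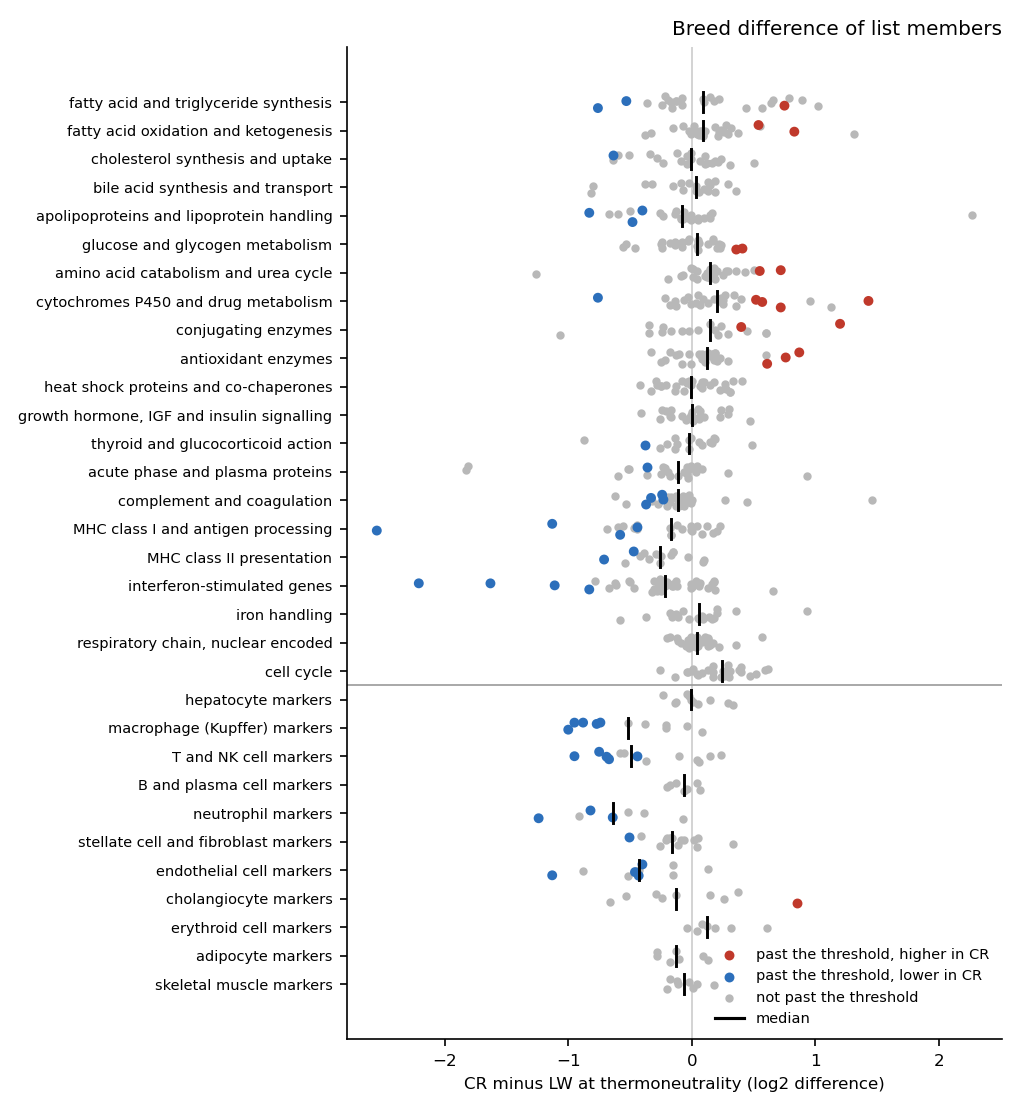
CR minus LW at thermoneutrality (x axis, log2 difference) of every measured member of 21 pathway lists (above the line) and 11 cell type marker lists (below it), 1 point per gene. Red and blue points passed the threshold, higher and lower in CR, grey points did not, and black bars are list medians, which lie lowest for neutrophil (-0.64), macrophage (-0.52) and T and NK cell (-0.49) markers.

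Among the 78 called genes plotted, the difference had the same sign in both sets of animals with 1 exception, and 55 of the 78 passed the threshold in HS animals too. The exception was STX10, a syntaxin of vesicle transport, at 0.27 in TN (limma adjusted p = 0.0173) and -0.14 in HS (adjusted p = 0.143). STX10, SEPW1 (0.20 and -0.43) and NAT10 (-0.08 and 0.50) had the smallest p for a breed difference that changed with temperature, and the smallest adjusted p of that test over all probes was 0.978. Some differences had smaller values in HS animals, such as EPHX2 (1.43 and 0.66), MGST2 (1.20 and 0.55) and PUSL1 (1.62 and 0.42), and none of these changes passed the test.

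**Figure D5:**
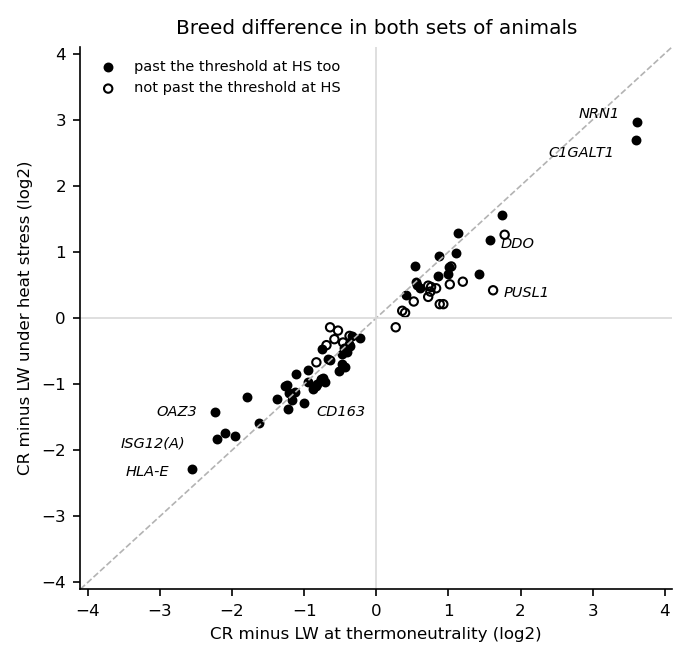
CR minus LW at thermoneutrality (x axis, log2) against CR minus LW in the heat-stressed animals (y axis, log2) for 78 genes, namely STX10, called list members and the genes named for their size. Filled points passed the threshold in both sets (55), open points at TN only (23), and the dashed line marks equal differences. All but 1 gene have the same sign in both sets.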

How the data were processed

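Liver RNA from 12 of 36 castrated pigs was compared, with groups taken from the labels. The authors deposited the scanner output of every array, made with Agilent Feature Extraction (10.10.1.1 in the submitters' processing notes), whose median signal is a spot intensity not yet normalized between arrays. They also deposited a table of log2 values for 42051 probes, quantile normalized per the methods, used here only as an alternative. The median signal was log2 transformed and quantile normalized over 60305 non-control probes, and the 44796 (74.3%) that exceeded background clearly on 6 or more of the 36 arrays entered the tests. On the 12 arrays the median signal was 70.0 to 89.0 intensity units against a background median of 19.0 to 24.0. No spot was saturated, and the number of arrays limits the precision.

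Symbols came from the files and the RefSeq table of assembly Sscrofa11.1, which also gave the coordinates. Of the kept probes, 23906 carried 1 of 11423 symbols. A gene's value is that of its kept probe with the highest mean over the 12 arrays. limma 3.58.1 in R 4.3.3 fitted 6 breed by temperature groups over all 36 arrays (two-sided, Benjamini-Hochberg over kept probes, threshold 0.05), without pen, day, father and mother of the study's model, which are not in the labels. All adjusted p in the text are from limma.

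Named genes were the 10 largest differences each way among symbols with 2 or more probes, at least 0.5 of them called the same way, the 4 largest each way among the others, the 2 largest each way per pathway list, and the 3 smallest p for a change with temperature. List and marker members named beyond this were chosen after their values were seen, and some called list members are counted but not reported here by name. The members, lists and rule were chosen with earlier results of these data known. The fit was tested on simulated data. Alternatives were other signals, scalings, filters, blocks and weights, and leaving out arrays or slides.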

Additional observations from a re-analysis of the deposited data

Results flagged for a closer look

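Each of 80 genes and 5 array measures was looked at in both groups, 170 checks in all, for an animal whose gap to its nearest neighbour exceeds Dixon's critical share of its group's range. Chance alone marks about 1 group in 20, or 8.5 of these checks, and 11 were found. In CR TN, replicate 4 was highest for CLDN12 (gap of 0.63 of the range) and lowest for MGST2 (0.828), replicate 5 was highest for PR39 (0.68), replicate 2 lowest for NAT10 (0.741), and replicate 3 lowest for CD3D (0.878). Replicate 6 was lowest for C6 (0.682) and highest for CLEC4G (0.78). In LW TN, replicate 3 was lowest for XAF1 (0.65), replicate 1 lowest for NUDT9 (0.716), and replicate 6 lowest for PECAM1 (0.718) and for the array's background signal (0.8).

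The breed difference of STX10 was 0.27 in TN and -0.14 in HS animals, which are 0.41 log2 units apart, and all 6 CR TN pigs lay above the LW TN mean whereas all 6 CR HS pigs, which are other animals, lay below the LW HS mean. In limma this change had an adjusted p of 0.978 over all probes.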

How the results depend on the processing

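The count of probes called at TN (1982) stayed within 1.5 times under the processed signal, normexp correction, median scaling, the filters on dim probes, slide as a random block and a trended robust spread. It was 953 in the deposited log2 table, 1261 with slide as a fixed block, 1051 with only the 12 arrays in the fit, 4034 without LW TN replicates 1 and 6, 3181 with array weights, and 654 of 11423 with 1 value per symbol, where fewer features are tested. Without slides 2, 3 or 4 it was 744, 254 and 984. Leaving out 1 animal gave 1070 (without CR TN replicate 3) to 2658 (without LW TN replicate 6). In HS animals the count was 1918 with 1 value per symbol against 7457 probes. No setting called a probe for a change of the breed difference with temperature. Over the named genes and their alternatives, 1923 values kept their direction and their side of the threshold, 550 kept their direction only, and 3 turned: NAT10, never called, to 0.0025 in the deposited table and 0.04 without slide 2, and CYP3A46 to -0.09 with 1 value per symbol. Of the list medians under these alternatives, 650 stayed within the spread between animals and 1 moved (fatty acid synthesis, -0.08 without slide 3). Elsewhere the cause was not tested. No paired analysis of CR and LW pigs was made, since per the study's methods litters and pens each held pigs of 1 breed. The labels give no replicate numbers, and those used here only name the animals.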

Other observations

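Genes of the mitochondrial genome were measured at the top of the signal range, and this set was looked at after its values were seen. Of 13, 3 passed the threshold (23.1%, against 4.82% of all genes), all higher in CR. They were ND4L (0.46, limma adjusted p = 0.00649), ND5 (0.39, 0.0402) and ND4 (0.32, 0.0436), subunits of respiratory complex I. ND4L lay between 15.21 and 15.50 in CR and between 14.64 and 15.21 in LW, and in HS animals the difference was 0.50. The other complex I subunits ND6 (0.28), ND3 (0.24), ND1 (0.16) and ND2 (0.15) had positive values that did not pass. Subunits of the other complexes were between -0.05 (COX3) and 0.13 (ATP8). Of 11 ND4 probes 3 were called, and without LW TN replicates 1 and 6 the adjusted p of ND4 was 0.0515.

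Called genes were spread over the autosomes and chromosome X of Sscrofa11.1, from 3.31% of the genes of chromosome 3 to 7.21% of those of chromosome 8, against 4.82% of all genes. On chromosome Y, 1 of 4 measured genes was called. On chromosome 4, which holds OAZ3, TRIM46, THBS3, USF1, S100A12 and CTSS, 43 of 678 genes were called (6.34%), 30 of them lower in CR, where 339 of the 551 genes called in all were lower. Among windows of 2 Mb with at least 10 measured genes, the share was highest at chr2:84000001-86000000, with 3 called genes of 10 (30.0%), all higher in CR. The window chr6:80000001-82000000 held 5 called genes of 19 (26.3%), all lower in CR, among them C1QA, C1QB, C1QC and ID3.

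Some secreted and stress-related liver genes varied widely between animals of the same breed. HAMP, the iron hormone hepcidin, ran from 7.19 to 15.16 in CR and from 7.20 to 13.79 in LW. SAA2, serum amyloid A, ran from 13.38 to 16.08 in CR and from 14.11 to 18.19 in LW, a difference of -1.83 that did not pass (limma adjusted p = 0.121). PON3, a paraoxonase carried on lipoproteins, ran from 12.29 to 15.96 and from 11.17 to 15.29, a difference of 2.27 (adjusted p = 0.134).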
